A study of Mus musculus with 4 samples.

Results

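Some m6A peaks lie where exons of different genes share the same stretch of the genome. These summits, the positions of highest signal within a peak, were taken from the peak list of each m6A immunoprecipitation (IP) replicate separately. A summit was kept when it lay in exons of 2 or more genes of the GENCODE M21 basic annotation. This rule kept 590 of 15635 summits in replicate 1 and 593 of 14872 in replicate 2. The rule used only the annotation and the place of the summit, so strength, replication and sequence were free to vary. A summit shared by 2 genes was kept in 572 and 578 cases, and 18 and 15 summits were shared by 3 genes.

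RNA came from the foetal liver of C57BL/6 mice, after cells with the progenitor marker Kit had been enriched on magnetic columns. Per the methods of the study the cells were Ythdf2 CTL, which carries both copies of a floxed reporter allele of Ythdf2 without a Cre driver, and the age of the embryos and the number of animals per sample are not given in the sources used here. The series holds 4 samples, namely 2 IP replicates from total RNA and 2 inputs labelled polyA RNA. There was no treatment and no second genotype, so the values below describe these cells and compare no conditions.

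N6-methyladenosine is a mark that the METTL3 and METTL14 complex places on mRNA and long noncoding RNA, mostly at an adenosine within the core GGAC or a related sequence. YTHDF2 binds the mark and promotes decay of the RNA. Mammalian genes overlap in several ways. Convergent genes run towards each other and share their 3′ ends, divergent genes start from a shared region and run apart, and a gene can also lie whole within another one on the opposite strand. Genes on the same strand can share exons through readthrough transcripts that join neighbours. RNA from opposite strands is complementary there, while RNA from same-strand genes is identical in sequence where exons are shared.

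The deposited peaks carry no strand, so the sequence on each strand is the first place where the genes of a locus differ. The sites below are the GGAC nearest to the summit on the strand of the named gene, in 25-nt windows of GRCm38 written 5′ to 3′, with GGAC in capitals. They were chosen to show loci where either strand offered a site and loci where a site lay close to the summit on a single strand. GGAC within 50 nt of the summit on either strand was present in 71.9% of these summits in replicate 1 and 73.5% in replicate 2, beside 67.8% and 67.6% of all peaks. Distances are from the summit of replicate 1.
Spsb3, + strand, chr17:24891797-24891821, 39 nt away: cctgaggccaGGACagtcttctccg
Eme2, - strand, chr17:24891872-24891896, 36 nt away: gcaactcaaaGGACaaataggagta
Bmp2k, + strand, chr5:97087850-97087874, 4 nt away: agagtctgctGGACccattcggtgc
Paqr3, - strand, chr5:97087823-97087847, 23 nt away: tcagatggcaGGACactggccctgt
Cdk4, + strand, chr10:127067741-127067765, 5 nt away: gtgaggtaagGGACctcttttctct
Tspan31, - strand, chr10:127067708-127067732, 28 nt away: actggtggttGGACttatgtctgtt
Jund, + strand, chr8:70700097-70700121, 46 nt away: gcgcatgcgcGGACtagctgcggtg
Gm11175, - strand, chr8:70700058-70700082, 7 nt away: cagtacgccgGGACctggtgctggg
Rnf146, - strand, chr10:29347334-29347358, 5 nt away: gggagtagctGGACttaggctggac
Srrd, - strand, chr5:112337578-112337602, 9 nt away: ctgactaccaGGACtgtgaggacct
Supt6, - strand, chr11:78245839-78245863, 26 nt away: gaggccttcgGGACctcactttgta
Xist, - strand, chrX:103482262-103482286, 3 nt away: ccaagaattaGGACaccgaggagca
Slc25a35, + strand, chr11:68973686-68973710, 3 nt away: tccgaacagtGGACagtttctgttg
The first 8 sites are 4 loci with GGAC within 50 nt on both strands in replicate 1, and the last 5 are from loci where, within 50 nt, the other strand held none. A match is a description of the sequence and does not show which RNA was methylated.

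The values in the lists are the fold enrichment of IP over background at the summit and the −log10 q-value of the peak caller. At the summit, a typical peak was backed by a median of 57 IP reads in each replicate, over a median background of 11.4 and 10 reads. One IP read more or less was a small part of that count. The fold also depends on the background, which was under 2 reads in 16.8% and 16.7% of all peaks. For the summits in overlapping exons the median was 68 and 65 IP reads. Exonic summits of marker genes were present for 7 of 10 stem and progenitor genes in each replicate, among them Cd34, Gata2, Runx1 and Tal1. Over all 22445 protein-coding genes of the annotation, expressed or not, it was 33.7% and 32.8%. Of 8 hepatocyte genes, 3 in replicate 1 and 2 in replicate 2 had one, including Hnf4a and Apoa1 in both. Their part in the results was not tested, and none of the 18 markers was among the overlapping genes with a shared summit.

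Overlapping exons held 4.75% ± 0.153 (SD, n = 2) of the summits that lay in any exon, 4.64% in replicate 1 and 4.86% in replicate 2. Exons of 2 or more genes make up 2.18% of the exonic bases of chromosomes 1 to 19, X and Y, expressed or not. The genes of a summit were on opposite strands, in a single arrangement, in 67.7% ± 0.355 (SD, n = 2). Convergent genes held 158 summits in replicate 1 and 149 in replicate 2. Divergent genes held 132 and 133, and genes contained in another on the opposite strand 108 and 121. Same-strand genes held 181 in each, and 11 and 9 summits of 3 genes mixed these arrangements. Divergent summits were 22.4% of the set in each replicate, with an exact 95% interval of 19.1 to 26.0 in both, while divergent overlaps make up 16.8% of the overlapping exonic bases. Convergent summits were 26.8% and 25.1% beside 28.3% of those bases, contained ones 18.3% and 20.4% beside 24.0%, and same-strand ones 30.7% and 30.5% beside 29.7%.

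Gene types differed between the arrangements. Protein-coding genes alone held 79.6% and 77.3% of same-strand summits in replicates 1 and 2. Their share was 59.5% and 56.4% among convergent ones. Among divergent summits this was 34.8% and 37.6%, and among contained ones 15.7% and 14.05%. A protein-coding gene with a lncRNA was the most frequent kind among contained summits, at 62.0% and 62.8%, and among divergent ones, at 47.0% and 45.1%. A divergent partner was of type TEC, an annotation for transcripts that await experimental proof, in 19 and 18 summits. Annotated small RNAs shared a summit with a protein-coding gene in 6 and 5 cases. All were miRNA genes, named here after their values were seen. Mir1306 lies in an exon of Dgcr8, which encodes the RNA-binding partner of Drosha, and the fold enrichment there was 2.50 and 2.44 on 89 and 86 IP reads.

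**Figure D1:**
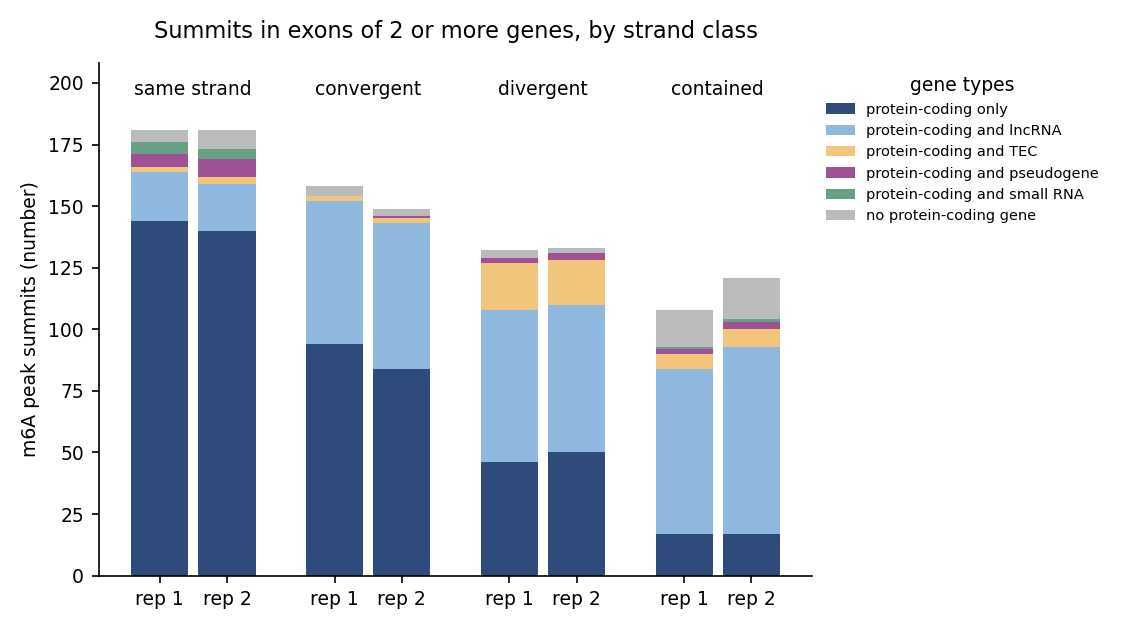
Number of m6A peak summits in exons of 2 or more genes (y axis) in each strand arrangement and replicate (x axis), stacked by the types of the genes. The mixed summits (11 and 9) are left out. Protein-coding genes alone make up most of the same-strand bars, and pairs with a lncRNA most of the contained bars.

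The place of the summit within the genes followed the arrangement. Of 94 convergent summits shared by protein-coding genes in replicate 1, 55 lay in the 3′ UTR of both genes and 38 in the 3′ UTR of one and the coding sequence of the other, and of 84 in replicate 2 these were 50 and 33. A stop codon of at least 1 gene lay within 200 spliced nt of the summit in 61.7% and 61.9% of them. Divergent summits lay at the other end. Of 46 in replicate 1, 25 were in the 5′ UTR of both genes and 20 in a 5′ UTR and a coding sequence, and of 50 in replicate 2 these were 28 and 19. A start codon lay within 200 nt of the divergent summits in 63.0% and 68.0%, against 1.06% and 1.19% of the convergent ones. The overlap itself sets much of this, since convergent genes share their 3′ ends and divergent genes their 5′ ends. Same-strand summits were in the coding sequence of both genes in 58 of 137 and 56 of 134.

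**Figure D2:**
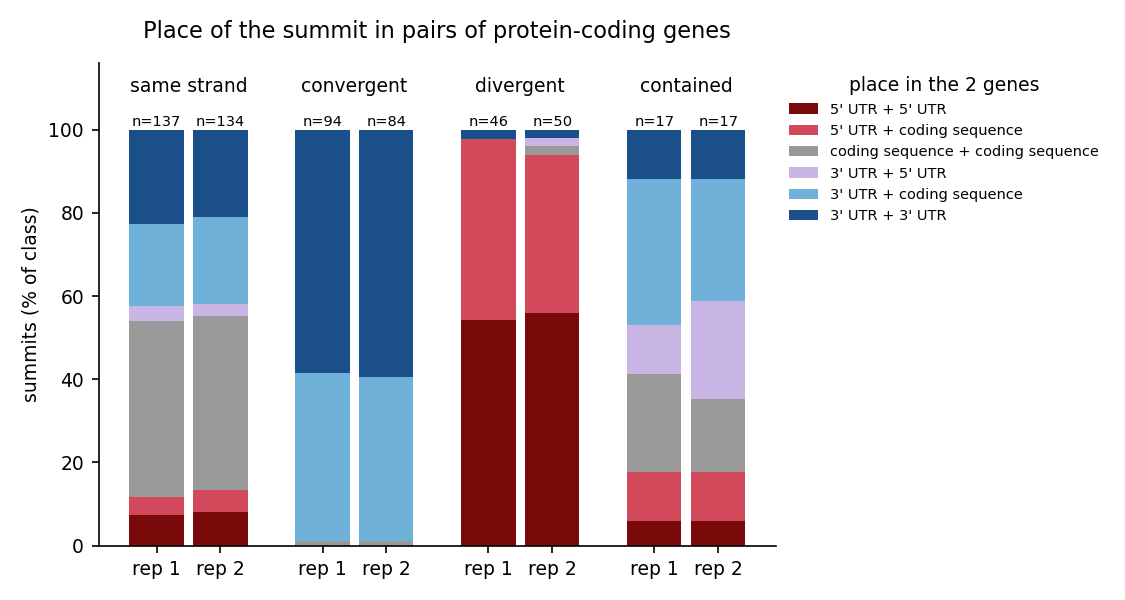
Share of summits in pairs of protein-coding genes (y axis, percent of the arrangement) by the part of each gene that holds the summit, for each replicate (x axis, n above each bar). Convergent bars are almost wholly 3′ UTR combinations and divergent bars almost wholly 5′ UTR combinations.

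Among convergent loci, the highest ranked by the lower −log10 q of the replicates was that of Spsb3, a substrate receptor of ubiquitin ligases, and Eme2, which encodes a partner of the endonuclease MUS81. The peak at chr17:24891199-24892700 had a fold enrichment of 4.86 in replicate 1, and that of replicate 2 had 5.17. These rested on 182 and 163 IP reads over a background of 36.7 and 29.2 reads. The summit lay in the last exon of each gene, exon 7 of 7, in the 3′ UTR of both, and 56.3% of the peak of replicate 1 was in exons of both. Eme2 had 2 further summits in exons that it alone holds in each replicate, and Spsb3 had 0.

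Bmp2k, a kinase induced by BMP2, and Paqr3, a Golgi membrane protein, shared the peak at chr5:97086824-97088753. Fold enrichment was 5.47 and 6.51 on 120 and 129 IP reads. The summits of the replicates stood far enough apart to change the motif reading, since GGAC lay within 50 nt on both strands in replicate 1 and on the Paqr3 strand alone in replicate 2. At the locus of Plcd4, a phospholipase C, and the zinc finger gene Zfp142, fold enrichment was 8.24 and 6.66. The nearest GGAC on the Plcd4 strand was 26 nt from the summit of replicate 1, and on the Zfp142 strand 76 nt. Zfp142 held 4 and 3 further summits of its own and Plcd4 held 0, so the nearer motif was on the strand of one gene and the further summits were in the other.

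The peak shared by Tesk1, a kinase of the actin cytoskeleton, and Cd72, a B cell coreceptor, lay whole in exons of both genes in each replicate. Fold enrichment was 8.63 and 8.96 on 83 and 78 IP reads. Neither gene had a summit elsewhere in exons of its own, and GGAC within 50 nt was present on the Tesk1 strand only. Rnf146, a ubiquitin ligase that recognises poly(ADP-ribose), overlaps Echdc1, which encodes a metabolite-proofreading decarboxylase, and the locus held 2 shared summits in each replicate. The stronger one had a fold enrichment of 4.24 and 4.49 on 147 and 148 IP reads, in the coding sequence of Rnf146, and the weaker one had 1.97 and 1.93, in the coding sequence of Echdc1. Tfip11, a factor of spliceosome disassembly, and Srrd shared a summit in their 3′ UTRs with 3.12 and 3.31 on 201 and 187 IP reads.

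Divergent loci were led by Gm26850 with Slc33a1, the acetyl-CoA transporter of the endoplasmic reticulum, and by Psph with Cct6a. At Slc33a1 the summit lay in the coding sequence of exon 1 and fold enrichment was 7.81 and 8.09 on 105 and 118 IP reads. GGAC lay within 50 nt on the Slc33a1 strand in both replicates and not on that of Gm26850. Psph encodes phosphoserine phosphatase and Cct6a a chaperonin subunit. Their shared summit in exon 1 had 6.56 and 8.05 on 103 and 100 IP reads, and no GGAC lay within 150 nt on either strand in either replicate. GENCODE M21 types Cct6a as a processed transcript, so this locus counts here as protein-coding with lncRNA although Cct6a is known as a protein-coding gene.

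Supt6, a histone chaperone of transcription elongation, and Sdf2, a protein of the endoplasmic reticulum, shared a 5′ UTR summit with 6.95 and 8.62. The Supt6 strand held GGAC 26 nt and 1 nt from the summits of replicates 1 and 2, and each of these genes had 1 further summit of its own in each replicate. At Maip1 with the tRNA hydroxylase gene Tyw5 the values were 6.02 and 8.47. At the splicing factor gene Sf3a2 with Plekhj1 they were 4.38 and 4.04. All 5 of these divergent loci had summits in exon 1 of both genes, and 4 of them were higher in replicate 2.

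Contained loci were led by Gm26617 with Zxda, which M21 types as an unprocessed pseudogene. The stronger of the peaks there had a fold enrichment of 10.1 and 14.8 on 97 and 92 IP reads. The GGAC on the Zxda strand was 49 nt and 48 nt from the summits. Its core reached past the 50-nt window in replicate 1 and lay inside it in replicate 2, so a shift of a single base changed the reading. Jund, an AP-1 transcription factor with a single exon, lies over the antisense gene Gm11175. Its peak had 5.66 and 6.43 on 148 and 134 IP reads, with GGAC on each strand in both replicates.

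Xist, the noncoding RNA of X inactivation, is overlapped by its antisense Tsix. The first Xist exon and the last Tsix exon shared a peak at chrX:103481966-103483212 in replicate 1, where replicate 2 had 2 peaks. Fold enrichment was 3.56 in replicate 1 and 3.38 at the stronger peak of replicate 2, on 180 and 166 IP reads. A GGAC on the Xist strand lay 3 nt from the summit of replicate 1, and at both summits of replicate 2 no GGAC lay within 50 nt on either strand. Xist held 3 further summits in exons of its own in each replicate, and Tsix held 0.

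Ptprcap, which encodes a CD45-associated protein of lymphocytes, lies within Rps6kb2, the gene of S6 kinase 2, and a shared summit had 3.42 and 3.11, at the same base in both replicates. Replicate 1 had a further shared summit with 4.30. The Rps6kb2 strand held GGAC 9 nt away. Rangrf within the mitochondrial carrier gene Slc25a35 had 4.09 and 3.58. None of the genes of these Ptprcap and Rangrf loci had a summit in exons of its own.

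Same-strand summits were described by the annotation of the genes that share them. Of the 174 same-strand summits with 2 genes in replicate 1, 114 involved a gene with only transcripts tagged as readthrough, and of 175 in replicate 2 there were 113. The exon at the summit had the same start and end in both genes in 52 and 52. A predicted-gene name was part of the pair in 123 and 125. The locus of Lrrc8a, the essential subunit of the volume-regulated anion channel, is an example, since its overlap with the predicted gene Gm28035 put 4 summits in the set in each replicate. The strongest had 7.53 and 7.55 on 125 and 118 IP reads, at the same base. Tug1, a long noncoding RNA, shared a summit of 5.61 and 6.89 with the small annotated RNA Gm27937, which covered 16.5% and 15.3% of the peak. Tug1 held 3 and 5 further summits that no other gene shared.

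Plainly named same-strand neighbours were fewer. Gemin4 of the SMN complex and Glod4 shared 4 summits in each replicate, from 4.21 and 3.21 at the first to 1.98 and 1.93 at the last, in the coding sequence of Gemin4 and the 3′ UTR of Glod4. Kat14, an acetyltransferase gene, and Pet117, an assembly factor of cytochrome c oxidase, had 3.52 and 3.84 on 138 and 128 IP reads. Evi2 with Evi2b, both known as sites of retroviral integration, had 3.74 and 3.57. Zbtb9 with Ggnbp1 had 3 summits in replicate 1 and 2 in replicate 2. The strongest of replicate 1, at 5.68, was at another place than the strongest of replicate 2, at 4.81. The replicate 1 summit 5 bp from the latter had 4.47. Tmed7, a cargo receptor, and Ticam2, an adaptor of TLR4, had 8.01 and 7.89 on 49 and 57 IP reads. Fam220a stands under 2 gene entries of the same symbol in M21, and its 2 shared summits in each replicate are 1 symbol counted under 2 entries.

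Fold enrichment differed by arrangement in the way that it differed by gene part elsewhere. The median over all overlapping-exon summits was 4.23 ± 0.189 (SD, n = 2), beside 4.18 and 4.39 in exons of exactly 1 gene and 4.47 and 4.76 over all peaks. Convergent summits had medians of 3.35 and 3.47, and divergent ones 5.22 and 5.81. Exons of a single protein-coding gene gave 3.73 and 3.82 in the 3′ UTR and 5.71 and 6.11 in the 5′ UTR. The reads behind these values ran the other way from the fold between divergent and convergent summits. Divergent summits had a median of 43 and 44 IP reads over a background of 7.51 and 6, and convergent ones 88 and 93 over 24.0 and 23.0. Contained summits lay between, at 4.24 and 4.86, and same-strand ones at 3.97 and 3.93. The part of depth in these differences was not tested.

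**Figure D3:**
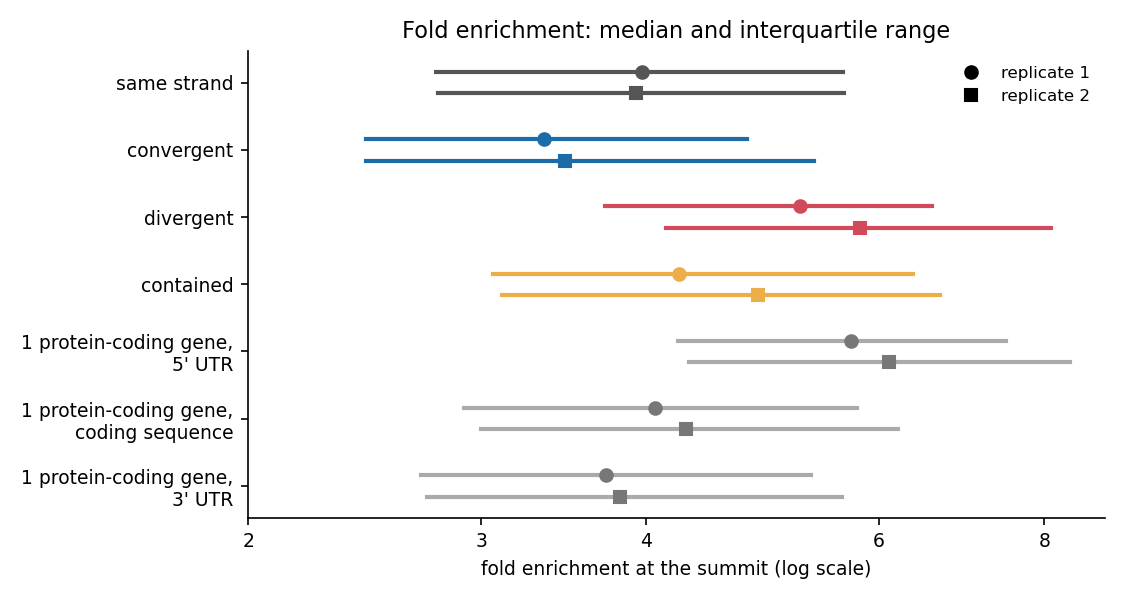
Median fold enrichment at the summit (points) with the interquartile range over summits (lines), on a log axis, for each arrangement and, in grey, for exons of a single protein-coding gene. Circles are replicate 1 and squares replicate 2. Divergent summits sit beside single-gene 5′ UTRs and convergent ones beside single-gene 3′ UTRs.

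The set repeated between replicates about as often as other exonic peaks. A peak of the other replicate overlapped 502 of 590 peaks in replicate 1 (85.1%, exact 95% interval 82.0 to 87.9) and 502 of 593 in replicate 2 (84.7%, 81.5 to 87.5). This was 80.6% and 83.9% of all peaks, and 84.1% and 86.9% of peaks in exons of exactly 1 gene. Divergent summits were overlapped less often than convergent ones in both lists, at 75% (66.7 to 82.1) and 71.4% (63.0 to 78.9) beside 84.2% (77.5 to 89.5) and 94.0% (88.8 to 97.2), with intervals that overlap in replicate 1 and not in replicate 2. Peaks in the 5′ UTR of a single gene had 70.4% and 71.6%. The loci, counted as sets of genes, numbered 506 and 507, and 395 were in both, which is 78.1% and 77.9% of each list. Of the peaks of replicate 1, 41 overlapped a peak of replicate 2 whose summit fell outside exons of the same genes, and 88 overlapped none.

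At 449 pairs of peaks with the same genes in each replicate, the summits were a median of 14 bp apart and 96.4% of the fold enrichments lay within 2-fold of each other. Spearman's rank correlation across these pairs was 0.812, and it was 0.818 across 9769 pairs in exons of exactly 1 gene. These pairs come from the same libraries, several share a gene, and the correlation is given as a description. For 82 divergent pairs the correlation was 0.540 and the SD of the log2 difference 0.64, beside 0.85 and 0.37 for 124 convergent pairs. Single-gene 5′ UTRs gave 0.668 and 0.56, and 3′ UTRs 0.846 and 0.41. The median divergent pair was higher in replicate 2 by 0.20 on the log2 scale, while the median convergent pair differed by -0.0038.

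Of the 10 divergent pairs that differed by over 2-fold, some are named here, chosen after their values were seen. In 9 of the 10 the background differed by a larger factor than the IP reads. These pairs were picked by fold enrichment, which is computed from the background. The same count was not made for divergent pairs within 2-fold, so it is not shown to be particular to the 10. At Rbm25, an RNA-binding splicing regulator, with Gm29361, fold enrichment was 3.55 and 12.2. The IP reads were 46 and 40 and the background 12.2 and 2.20 reads. At Rasal3, a Ras GTPase-activating protein, with CT485616.1 the order was the reverse, 11.2 and 3.49 on 55 and 54 IP reads over 4.02 and 14. Flvcr1, a haem exporter, with A230020J21Rik had 2.55 and 7.24 on 35 and 37 IP reads over 13.1 and 4. The exception was Dusp12 with Gm26620, with 10 and 23 IP reads over 1.92 and 1.58.

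**Figure D4:**
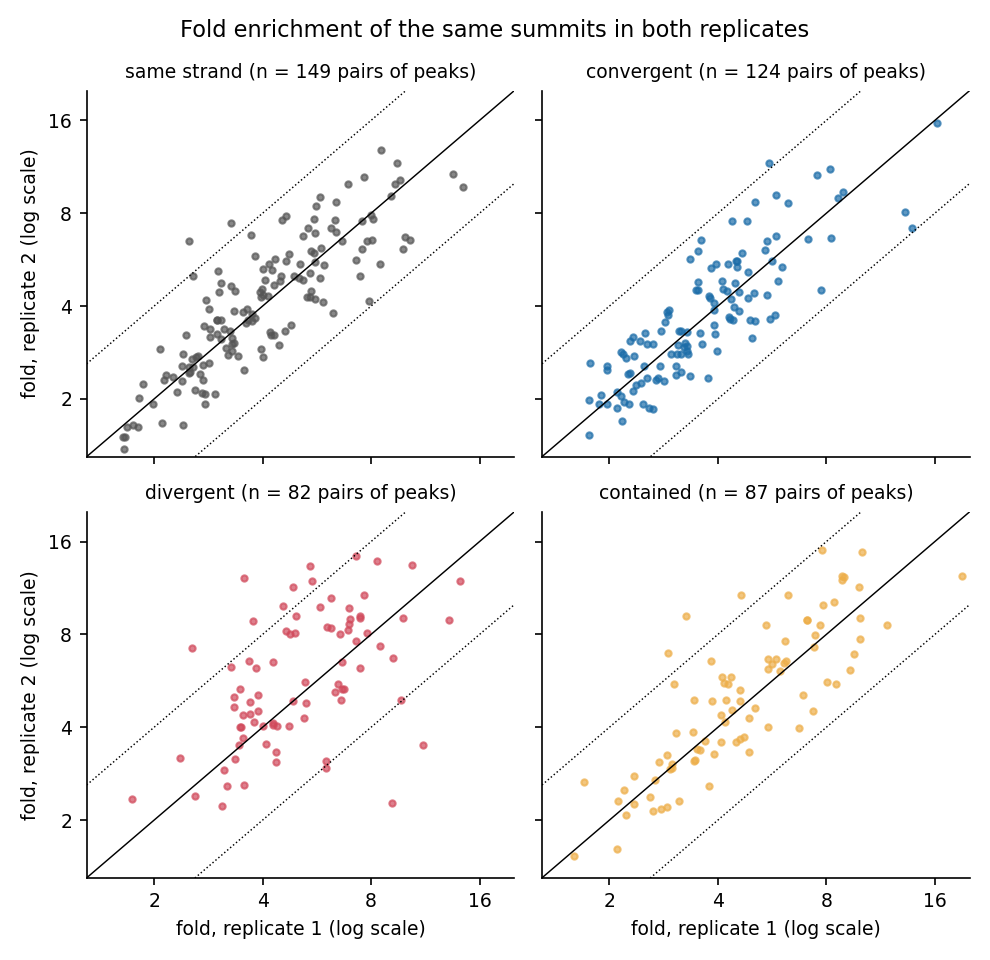
Fold enrichment in replicate 1 (x axis) and replicate 2 (y axis), both on log scales, of overlapping peaks with the same genes, one panel for each arrangement. The solid line marks equal values and the dotted lines a 2-fold difference. Divergent pairs scatter more widely, with 72 of 82 inside the dotted lines against 123 of 124 convergent pairs.

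Peak extent and other summits of the same genes give further values for each locus. For opposite-strand genes, a median of 83.0% of the peak in replicate 1 and 81.0% in replicate 2 lay in exons of both genes. The whole peak did so in 121 of 398 and 117 of 403. The rest of the peak reached exonic sequence of exactly 1 of the genes in 60.6% and 60.8%, and of both in 35 and 40 peaks. At 357 and 361 opposite-strand loci of 2 genes, exactly 1 gene had a further summit in exons that it alone holds in 54.1% and 51.2%. Both genes had one in 11.8% and 9.14%, and neither in 34.2% and 39.6%.

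Where a protein-coding gene met a lncRNA on the opposite strand, the further summits were mostly in the protein-coding gene. Of 162 such loci in replicate 1, 94 had one in the protein-coding gene alone, 5 in the lncRNA alone and 12 in both. In replicate 2 these were 91, 7 and 8 of 170. Exon length and expression differ between such genes and were not adjusted for. Of 145 and 138 opposite-strand loci of protein-coding genes, both genes had one in 28 and 23. Same-strand loci had a further summit in neither gene in 63.6% in each replicate. A further summit can be counted only where a gene holds exons alone. Of the same-strand peaks of 2 genes, 113 of 174 and 112 of 175 reached no such exon, beside 122 of 398 and 118 of 403 on opposite strands. These counts describe the extent of the shared peak only. The number and length of exons that each gene holds alone were not measured or adjusted for.

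The motif was read on each strand to set the genes of a locus side by side. In exons of a single protein-coding gene, GGAC lay within 50 nt on the sense strand in 55.4% and 55.3% of summits and on the antisense strand in 28.1% and 28.0%. Opposite-strand pairs of a protein-coding gene and a noncoding gene had it on the protein-coding strand in 54.8% (exact 95% interval 47.9 to 61.5, n = 219) and 50% (43.4 to 56.6, n = 230). On the strand of the noncoding gene it was present in 37.9% (31.4 to 44.7) and 38.3% (32.0 to 44.9). Same-strand summits, where no exon of the basic set covers the summit on the antisense strand, had GGAC there in 35.9% (28.9 to 43.4) and 37.0% (29.97 to 44.5). Both sets had a higher share than the antisense strand of single-gene exons in each replicate. Antisense introns, other transcripts and exons elsewhere in the 50-nt window were not checked. The intervals treat summits as separate, although the 181 same-strand summits came from 138 and 137 loci. These differences were not tested. The place in the gene moves with this share, because the antisense strand of single-gene 5′ UTRs held GGAC in 37.0% and 39.5%, and its part was not tested. In coding sequence the noncoding strand had 35.7% (26.3 to 46.0) and 31.7% (22.9 to 41.6). The antisense strand of single genes had 26.0% and 26.6% there. In 5′ UTRs the noncoding strand had 41.9% (n = 62) and 49.3% (n = 71), beside the 37.0% and 39.5% of single genes. In 3′ UTRs the noncoding strand had 37.3% (n = 59) and 36.4% (n = 55), beside 28.3% and 26.1%. The exact 95% intervals of these UTR shares held the single-gene shares in both replicates.

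By arrangement, convergent pairs had GGAC on the noncoding strand in 46.7% and 43.5%, divergent pairs in 37.3% and 44.4%, and contained pairs in 31.6% and 28.7%. The intervals of these shares overlap each other. Of all 219 pairs in replicate 1, 80 had GGAC on the protein-coding strand alone, 43 on the noncoding strand alone, 40 on both and 56 on neither, and in replicate 2 these were 79, 52, 36 and 63. Convergent pairs of protein-coding genes had it on exactly 1 strand in 58.5% and 58.3%. GGAC therefore lay on exactly 1 strand for little more than every other summit, and a GGAC without a methylated adenosine looks the same in the genome. In exons of a single protein-coding gene it lay on the sense strand alone at 4616 and 4414 summits. It lay on the antisense strand alone at 1514 and 1425, so GGAC on 1 strand does not name the methylated RNA.

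**Figure D5:**
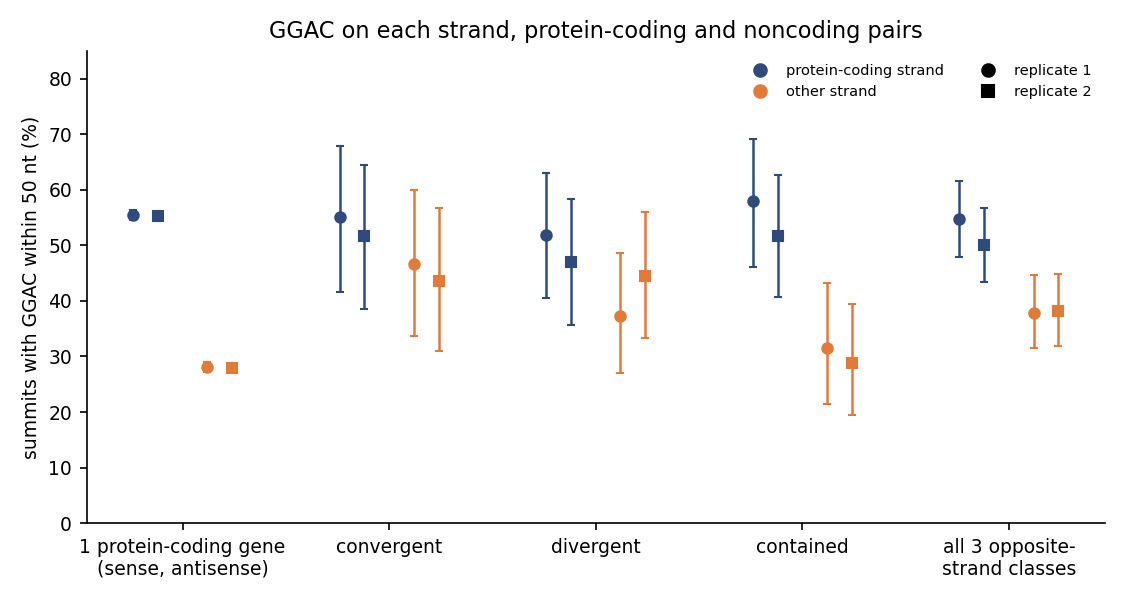
Share of summits with GGAC within 50 nt (y axis, percent) on the protein-coding strand (blue) and the other strand (orange), for exons of a single protein-coding gene and for opposite-strand pairs of a protein-coding and a noncoding gene. Bars are exact 95% intervals, which cover counting error only. The noncoding strand of the pairs lies between 28.7% and 46.7%, and the antisense strand of single-gene exons at 28.1% and 28.0%. Same-strand summits, not plotted, had 35.9% and 37.0% on their antisense strand.

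Several lists of genes show which known regulators fell in overlapping exons. Over all protein-coding genes, with a summit or not, 3.19% in replicate 1 and 3.14% in replicate 2 had a summit shared with another gene. These were 717 and 704 genes, beside 7567 and 7363 with any exonic summit. The few listed genes below are a description beside these values. Of 24 genes taken as textbook cases of overlap, 5 in replicate 1 and 7 in replicate 2 had a shared summit. They were listed for their overlap and include noncoding genes, so the share over protein-coding genes is not a like measure. Ube3a, a ubiquitin ligase gene, shared a 5′ UTR summit of 7.27 and 7.62 with 9330162G02Rik. Zeb2, a repressor of transcription, shared one with its antisense Zeb2os in replicate 2 only, at 3.08 on 41 IP reads.

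Among 32 haematopoietic regulators, 26 had an exonic summit in each replicate and 2 a shared one. Csf1r, the receptor of macrophage colony-stimulating factor, shared a 3′ UTR summit with Hmgxb3 at 3.56 and 3.26 on 112 and 112 IP reads. This was the only exonic summit of Csf1r, so whether its RNA or that of Hmgxb3 was methylated cannot be told apart, and Hmgxb3 had 1 further summit of its own in each replicate. Bcl11a, a repressor of foetal globin genes, shared one with the antisense 4930538E20Rik at 2.35 and 2.78 and held 3 and 2 others. Of 24 cell cycle and p53 genes, 18 and 17 had an exonic summit, and Cdk4 alone had a shared one, in its 3′ UTR with that of Tspan31, at 1.75 and 1.98. Cdk4 had no other. Adar, the double-stranded RNA editing enzyme, was the only one of 35 interferon and inflammation genes, with 2.84 and 2.29 in the 3′ UTR that it shares with Chrnb2, a nicotinic receptor subunit, and it held 3 and 2 summits of its own. Of 18 genes of the m6A machinery, Cbll1, a subunit of the writer complex also named Hakai, shared one with Gm29542 at 4.60 and 3.68, and held no other in replicate 1 and 1 in replicate 2.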

How the data were processed

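Peak lists of both IP replicates were analysed, and no peak list of the 2 inputs was used. Per the study's methods the authors aligned reads to GRCm38 with HISAT2 and called peaks per replicate with MACS2 (version 2.1.1.20160309, nomodel). The control library and threshold for calling are not given in the sources used here. The authors deposited for each peak a fold enrichment (a ratio), a −log10 p-value, a −log10 q-value, a score derived from q, which was not used, and the offset of the summit. IP and background reads were computed from the deposited fold and p, and whole IP reads matched 100% of peaks, differing in −log10 p by at most 0.000342. The fold was taken as IP signal plus 1 over background plus 1. IP signal was whole reads times a scale of 1 in replicate 1 and a fitted 0.952 in replicate 2. Background is on the scale of the caller, so printed IP reads over background do not give the fold exactly. The computation was tested on simulated data. The members and lists were chosen with earlier results of these data known.

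Exons, gene extents and gene types came from GENCODE M21 (basic set). Regions were read in the transcript with the longest coding sequence at the summit. GGAC was searched on both strands of the genome (GRCm38.p6 from RefSeq) within 50 nt, and within 150 nt for the nearest. Named loci were present in both replicates in overlapping peaks and ranked by the lower −log10 q, namely the first 6 convergent, 4 divergent, 4 contained and 6 same-strand loci with plain gene names, the first 2 of each without that condition, and those with a listed gene. Some loci that this rule names are not reported here. No test was run. Shares have exact Clopper-Pearson 95% intervals. Analyses used Python 3.11.15, pandas 2.3.3 and SciPy 1.17.1.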

Additional observations from a re-analysis of the deposited data

How the results depend on the processing

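The share of exonic summits in overlapping exons was 5.44% with all annotated transcripts, 2.61% with protein-coding genes only and 7.79% when any base of the peak counted. Opposite strands made up 68.6% with all transcripts and 50.8% with protein-coding genes only. The share of peaks overlapped by the other replicate was 75.2% with reciprocal overlap of 50%, 71.0% with summits within 100 bp, 82.3% at −log10 q of at least 5 and 69.2% at a fold of at least 4. At −log10 q of at least 5 the median fold was 4.43. GGAC lay on the protein-coding strand in 73.6% and on the noncoding strand in 58.6% within 100 nt, and GGACT in 17.8% and 13.6% within 50 nt. Each setting changes which genes, bases or peaks are counted, and the cause of these shifts was not tested. The shares at a higher q or fold threshold are not read as a dependence on peak strength. Each replicate alone gave 4.64 to 4.86%, 67.5 to 68.0%, 84.7 to 85.1%, a median fold of 4.10 to 4.37, 50 to 54.8% and 37.9 to 38.3% for these 6 results in the same order. Intervals cover counting error only, and 9.15% and 9.44% of the summits had a background under 2 reads, where fold enrichment is least precise. No paired analysis was possible because no result comes from a test and only the IP samples have a peak list here.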

Other observations

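Outside these comparisons, the extremes of the set were read off after their values were seen. The convergent locus of Map3k10, a kinase of JNK signalling, with Ttc9b had a fold enrichment of 16.2 and 15.7 on 35 and 32 IP reads over a background of 1.22 and 1 reads. The noncoding genes A930029G22Rik and C030034I22Rik had 19.04 and 12.4 on 38 and 38 IP reads over 1.05 and 2. Wrnip1, a protein of replication fork protection, with D930007J09Rik had a shared summit in the coding sequence of both, at 7.77 and 15.1 on 76 and 94 IP reads over 8.91 and 5. Hspa1a, an inducible Hsp70 gene, with Gm20481 had 2.91 and 6.95 on 167 and 129 IP reads over 56.8 and 16.8. Summits in the coding sequence of both genes on opposite strands numbered 5 in each replicate. Those of Wrnip1 and Hspa1a, of Gm10197 with Mxi1, and of Dclre1c with Suv39h2 were in both lists.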
